A study of Mus musculus with 2 samples.

Results

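Nephronectin (Npnt), integrin alpha8 (Itga8) and 7 further genes of integrin ligands and subunits were followed through mouse lung fibroblastic stroma by single-cell RNA sequencing. The ligands were Npnt, fibronectin (Fn1), tenascin-C (Tnc), osteopontin (Spp1) and vitronectin (Vtn). The subunits were Itga8, integrin alpha v (Itgav), integrin beta1 (Itgb1) and integrin beta5 (Itgb5). These 9 genes were chosen by name, and all 9 were among the 21014 genes of both deposited tables. The comparison set 1 library from C57Bl/6J mice fed a high fat diet (HFD) for 16 weeks against 1 library from C57Bl/6J mice fed normal chow (NC) for 16 weeks. The labels give neither the age and sex of the mice nor how many were pooled. Cell classes were the 5 of the deposited annotation, which are myofibroblasts, pericytes and the fibroblasts named Asc1, Gas6 and Pi16. The annotation was made from the same cells, so a class against the others is a description here and was not tested.

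Integrins are pairs of an alpha and a beta subunit that hold cells to the matrix. The alpha8 beta1 pair recognises an arginine-glycine-aspartate triplet, RGD, and nephronectin is its best known ligand. Fibronectin, vitronectin and osteopontin carry the same triplet and are also bound by integrins that contain alpha v, among them the vitronectin receptor alpha v beta5. In the mouse lung, Npnt and Itga8 are widely used as marks of alveolar fibroblasts, and Itga8 is also known from smooth muscle and contractile interstitial cells.

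The RGD triplet is what the ligands share, so the coding sequence around it is shown from GENCODE M21 transcripts (mouse build GRCm38), read 5′ to 3′ along the transcript. Capitals mark the in-frame arginine, glycine and aspartate codons.
Npnt, chromosome 3, reverse strand, triplet from codon 430 of 609: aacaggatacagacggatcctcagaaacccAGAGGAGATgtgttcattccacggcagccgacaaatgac
Spp1, chromosome 5, forward strand, triplet from codon 145 of 295: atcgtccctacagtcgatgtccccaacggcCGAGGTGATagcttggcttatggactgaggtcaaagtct
Fn1, chromosome 1, reverse strand, first triplet, from codon 1614 of 2477: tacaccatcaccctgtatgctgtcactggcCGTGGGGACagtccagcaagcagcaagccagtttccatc
Fn1, second triplet, from codon 2181 of 2477: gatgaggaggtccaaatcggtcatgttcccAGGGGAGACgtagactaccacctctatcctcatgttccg
Vtn, chromosome 11, forward strand, triplet from codon 64 of 478: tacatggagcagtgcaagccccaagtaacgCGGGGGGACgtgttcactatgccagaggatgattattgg
The arginine codon differed among the 4 genes, being AGA in Npnt, CGA in Spp1, CGT and AGG in Fn1 and CGG in Vtn. The Tnc transcript read in the same way held 0 in-frame RGD triplets in 2110 codons, although tenascin-C is bound by integrins through other sites.

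The cells kept, 6089 from HFD and 8140 from NC, each had 500 or more genes detected and no more than 10% of their counts from mitochondrial genes. Median depth was 10045 counts per HFD cell and 7524 counts per NC cell, and 17 cell barcodes occurred in both libraries. Levels are counts scaled to a common total (CPM), from the counts summed over a class. With 1 library per diet no replicate could be checked and nothing was tested, and every interval covers counting error only. For genes whose counts lie in a few cells, such as Spp1, the intervals are too narrow even for that. Higher or lower by size means a ratio past 1.5-fold up or down, for genes whose libraries together hold 50 or more effective counts, an effective count being a count divided by the variance factor of its library. In the 4 fibroblast classes pooled (Asc1, Gas6, Pi16 and myofibroblasts), 5.45% of 13422 measured genes were higher by size and 4.75% were lower. Of the 9 genes, 8 were measured there. Spp1 was the 1 higher by size, 0 were lower, and Vtn had too few counts. In a sum over a class, fewer positive cells and less RNA per cell cannot be told apart.

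**Figure D1:**
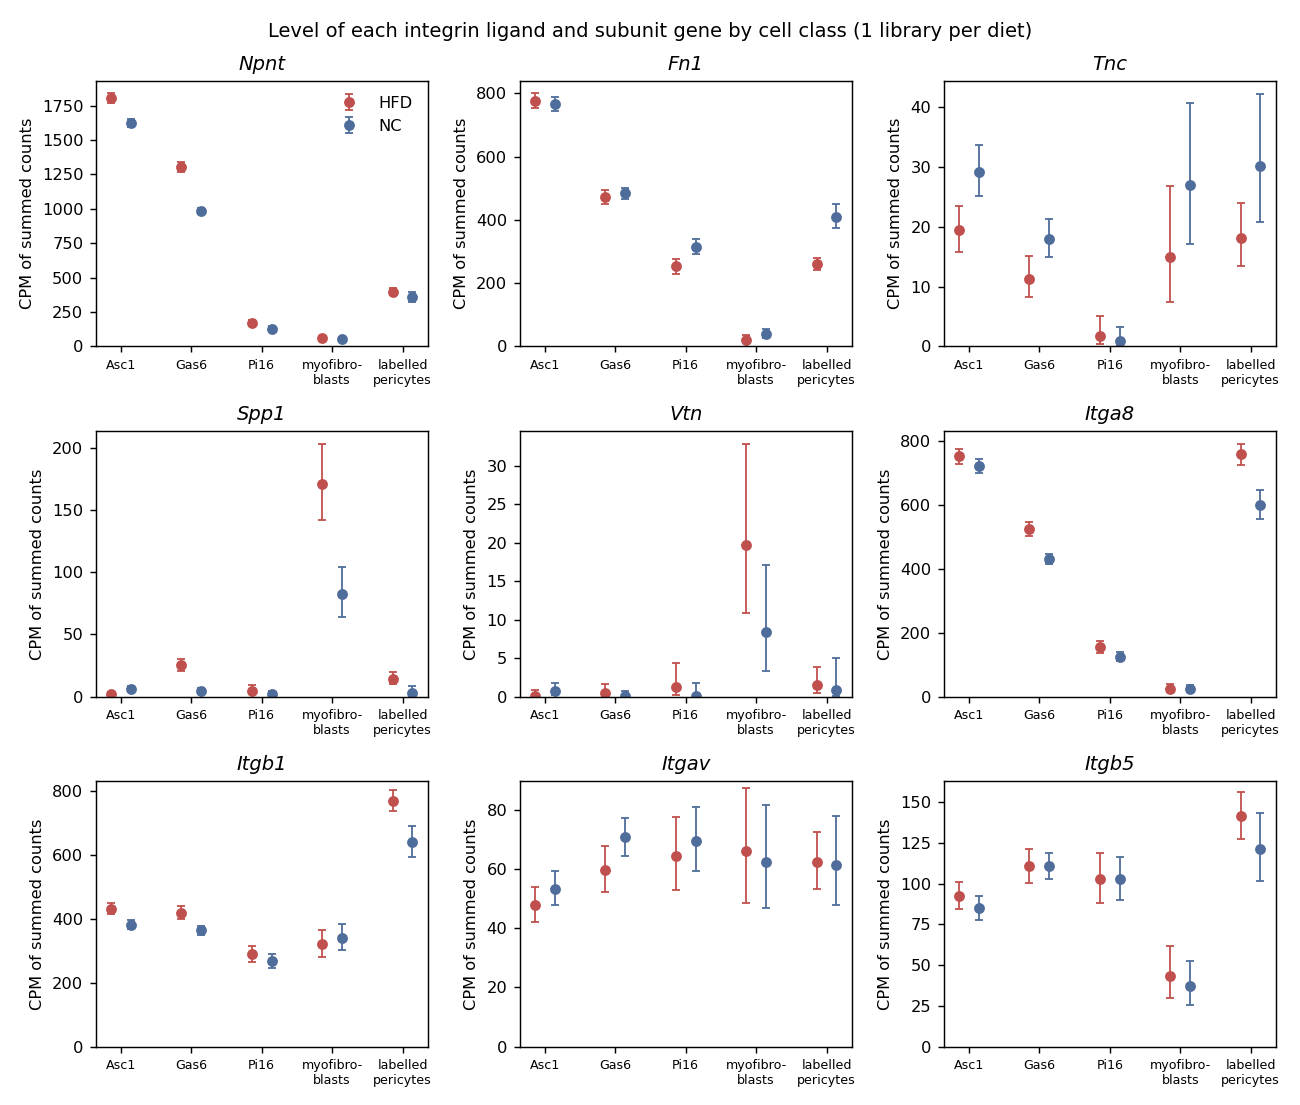
CPM of summed counts (linear vertical axes, starting at 0) for each of the 9 genes in the 5 classes, HFD left of NC, with 95% counting intervals and 1 library per diet. Npnt and Fn1 peak in Asc1 fibroblasts, Itga8 is high in Asc1 fibroblasts and in the labelled pericytes, Itgb1 and Itgb5 peak in the labelled pericytes, and Spp1 and Vtn in myofibroblasts.

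The class labelled pericytes needs its markers beside it, because several of the 9 genes peak there. Its 6 smooth muscle markers (Acta2, Myh11, Actg2, Des, Cnn1 and Lmod1) summed to 18852 CPM in HFD and 18224 CPM in NC, whereas its 7 pericyte markers summed to 394 CPM in HFD and 300.5 CPM in NC. All 6 and all 7 had counts in both libraries. The class is therefore called the labelled pericytes throughout. It held 596 HFD cells and 250 NC cells, with a median depth of 19715 counts in HFD and 15460 counts in NC, the deepest of the 5 classes. Of 6 endothelial markers 4 were available, without Tie1 and Emcn, and summed to 0.49 CPM over all HFD cells and 1.20 CPM over all NC cells. The 6 epithelial markers summed to 29.3 CPM over all HFD cells and 23.7 CPM over all NC cells. Scgb1a1 made up most of that, with 26.9 CPM in HFD and 21.7 CPM in NC. Pecam1, Epcam and Sftpc were at 0 in both libraries. Whether these zeros reflect the purity of the cells was not tested.

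Npnt encodes nephronectin, a secreted protein of the basement membrane and interstitial matrix. Its level was 1802 CPM in HFD and 1623 CPM in NC Asc1 fibroblasts, and 1305 CPM in HFD and 984 CPM in NC Gas6 fibroblasts. The labelled pericytes had 398 CPM in HFD and 356 CPM in NC, and Pi16 fibroblasts 170 CPM in HFD and 130 CPM in NC. Myofibroblasts had the lowest level, 58.0 CPM in HFD and 51.1 CPM in NC. The order of the classes was the same in both libraries, and no neighbouring counting intervals overlapped in it. Asc1 and Gas6 fibroblasts together held most Npnt counts, with 59.6% and 31.7% of all Npnt counts in HFD and 58.2% and 37.6% in NC.

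Npnt was also present in most single cells of those classes. After thinning every cell to 3000 counts, 87.2% of HFD and 85.6% of NC Asc1 fibroblasts had an Npnt count, as did 83.4% of HFD and 75.9% of NC Gas6 fibroblasts. In myofibroblasts, where the level was lowest, the thinned share was 6.21% in HFD and 7.17% in NC. The 10 cells with most Npnt counts held 61.7% of the Npnt counts of that class in HFD and 36.6% in NC. Whether free RNA in the droplets gave part of these counts was not tested. Unthinned, the share in Asc1 fibroblasts was 91.5% in HFD and 88.7% in NC. Thinning left out 87 HFD cells and 418 NC cells that were too shallow.

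Between the diets, Npnt had the same direction in every class and stayed below the 1.5-fold size. The pooled fibroblasts had 1289 CPM in HFD and 1062 CPM in NC, a ratio of 1.21 (95% counting interval 1.19 to 1.24). The ratio was 1.11 (1.08 to 1.14) in Asc1 fibroblasts, 1.33 (1.28 to 1.38) in Gas6 fibroblasts and 1.30 (1.11 to 1.53) in Pi16 fibroblasts. It was 1.13 (0.725 to 1.77) in myofibroblasts and 1.12 (0.994 to 1.26) in the labelled pericytes, where the intervals include 1. Without the 10 cells with most Npnt counts in each library the myofibroblast ratio was 0.694, and without the deepest 5% of cells that of the labelled pericytes was 0.921. Summed markers of alveolar fibroblasts were higher in HFD in every class but myofibroblasts (383 CPM in HFD and 388 CPM in NC). All 8 markers were present in both libraries. They summed to 10006 CPM in HFD and 8005 CPM in NC Asc1 fibroblasts, and to 7469 CPM in HFD and 5705 CPM in NC Gas6 fibroblasts. Inmt made up most of each sum, with 7161 CPM in HFD and 5449 CPM in NC Asc1 fibroblasts. Lpl was lower in HFD in both classes, with 11.5 CPM in HFD and 22.02 CPM in NC Asc1 fibroblasts. The other markers were higher in HFD in both, Limch1 only slightly in Asc1 fibroblasts (1167 CPM in HFD and 1143 CPM in NC). In the Gas6 class the summed 7 adventitial markers were lower in HFD, at 1621 CPM in HFD and 2440 CPM in NC. The part of these shifts in the Npnt ratio was not tested.

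**Figure D2:**
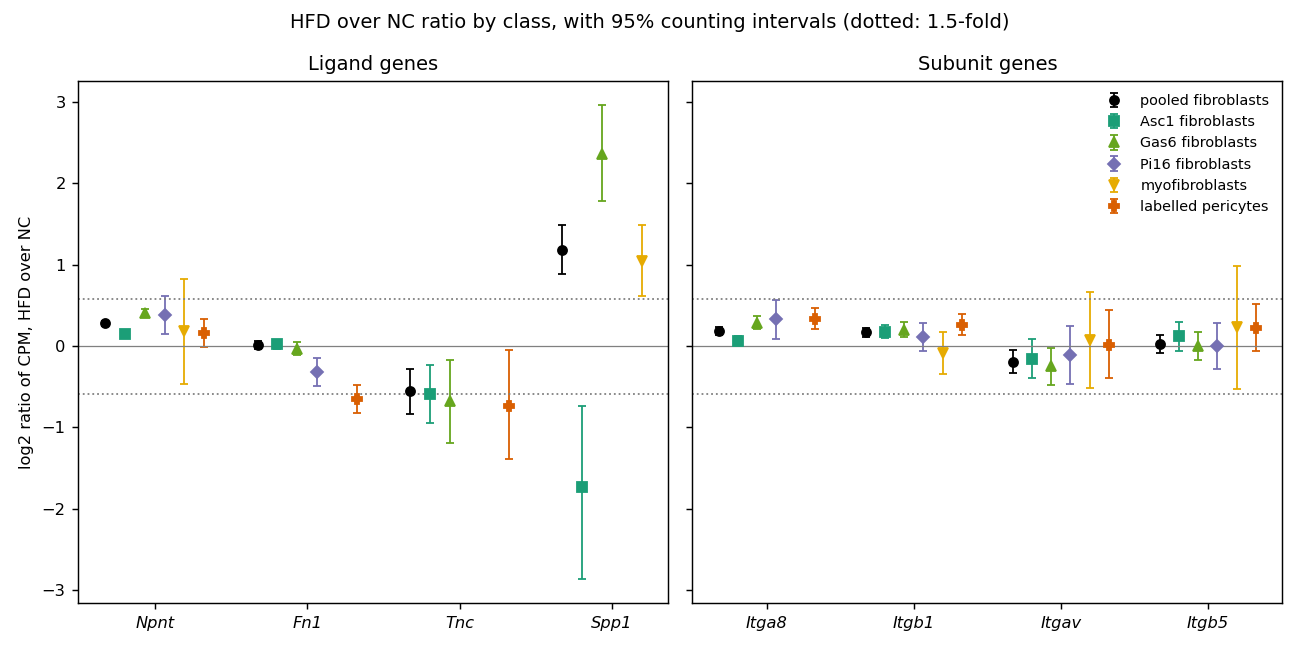
log2 of the HFD over NC ratio of CPM for the 4 measured ligand genes (left) and the 4 subunit genes (right), in pooled fibroblasts and in each class with at least 50 effective counts, with 95% counting intervals. Npnt lies above 0 in every class, Tnc lies below 0 wherever it was measured, and Spp1 lies on both sides.

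Itga8 encodes the alpha subunit that pairs with beta1 to bind nephronectin. Its level was 753 CPM in HFD and 723 CPM in NC Asc1 fibroblasts, and 760 CPM in HFD and 601 CPM in NC labelled pericytes. Gas6 fibroblasts had 526 CPM in HFD and 431 CPM in NC, Pi16 fibroblasts 156 CPM in HFD and 124 CPM in NC, and myofibroblasts 24.8 CPM in HFD and 23.8 CPM in NC. Asc1 fibroblasts and labelled pericytes could not be ranked in HFD, where their intervals overlap, while in NC Asc1 fibroblasts stood above. The HFD over NC ratio was 1.04 (0.999 to 1.09) in Asc1 fibroblasts, 1.22 (1.15 to 1.29) in Gas6 fibroblasts, 1.26 (1.06 to 1.49) in Pi16 fibroblasts and 1.26 (1.16 to 1.38) in the labelled pericytes. In pooled fibroblasts it was 1.14 (1.10 to 1.17). Myofibroblasts had too few Itga8 counts for a ratio.

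Ligand and receptor subunit did not keep the same proportion across classes. Counts of Npnt over counts of Itga8 stood at 2.39 in HFD and 2.25 in NC Asc1 fibroblasts, 2.48 in HFD and 2.29 in NC Gas6 fibroblasts, and 1.09 in HFD and 1.05 in NC Pi16 fibroblasts. In the labelled pericytes the proportion was 0.524 in HFD and 0.592 in NC. These proportions compare the same gene pair between classes and say nothing of the protein levels. The contrast is also visible cell by cell at 3000 counts. In Asc1 fibroblasts 58.0% of HFD and 56.8% of NC cells had counts of both genes, and 6.38% of HFD and 7.18% of NC cells had Itga8 without Npnt. In the labelled pericytes 35.6% of HFD and 35.6% of NC cells had both, and 38.5% of HFD and 32.4% of NC cells had Itga8 without Npnt.

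**Figure D3:**
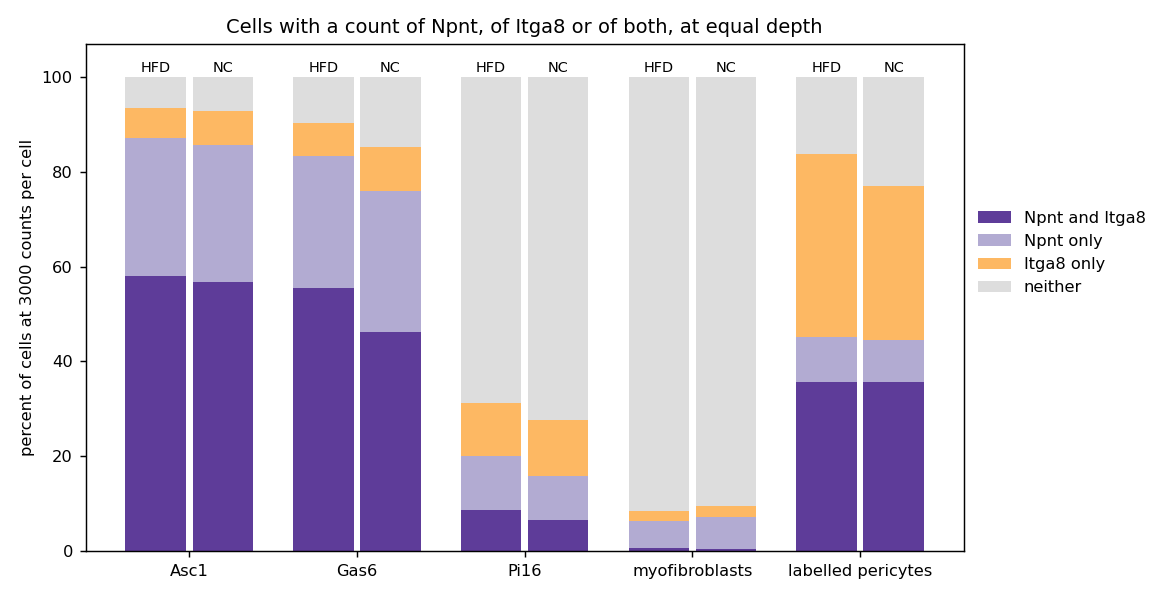
Percent of cells (vertical axis) with a count of Npnt and Itga8, of 1 of them or of neither, in each class at 3000 counts per cell, HFD left of NC. Cells with Itga8 alone make up 38.5% of HFD and 32.4% of NC labelled pericytes, and 6.38% of HFD and 7.18% of NC Asc1 fibroblasts.

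Gas6 fibroblasts were the class in which joint detection differed most between the diets, at 55.4% of HFD and 46.1% of NC cells. In Pi16 fibroblasts 8.62% of HFD and 6.59% of NC cells had both genes. If the genes had been detected independently, 3.98% of HFD and 2.91% of NC Pi16 cells would have had both. In Asc1 fibroblasts the same product was 56.2% in HFD and 54.8% in NC, close to the measured shares.

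Itgb1 encodes the beta subunit shared by many integrins, alpha8 beta1 among them. It was present in every class, with 769 CPM in HFD and 640 CPM in NC labelled pericytes, 431 CPM in HFD and 382 CPM in NC Asc1 fibroblasts, and 418 CPM in HFD and 364 CPM in NC Gas6 fibroblasts. Myofibroblasts had 322 CPM in HFD and 341 CPM in NC, and Pi16 fibroblasts 289 CPM in HFD and 267 CPM in NC. The interval of Asc1 fibroblasts overlapped that of Gas6 fibroblasts in both libraries, and the labelled pericytes stood above the rest. Its ratio was 1.12 (1.08 to 1.17) in pooled fibroblasts and 1.20 (1.10 to 1.31) in the labelled pericytes. At 3000 counts, 60.7% of HFD and 51.8% of NC labelled pericytes had counts of both Itga8 and Itgb1, against 31.8% of HFD and 31.0% of NC Asc1 fibroblasts.

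Of the subunits of the vitronectin receptor, Itgav ranged over the 5 classes from 47.8 to 65.9 CPM in HFD and from 53.3 to 70.7 CPM in NC, with overlapping intervals between most classes. Its ratio in pooled fibroblasts was 0.874 (0.791 to 0.964), and it stayed between 0.843 and 1.06 in the single classes. Itgb5 had 141 CPM in HFD and 121 CPM in NC labelled pericytes, between 84.9 and 111 CPM in Asc1, Gas6 and Pi16 fibroblasts of either library, and 43.6 CPM in HFD and 37.2 CPM in NC myofibroblasts. Its pooled ratio was 1.01 (0.939 to 1.09). None of the 4 subunit genes reached the 1.5-fold size in any class where it was measured.

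Fn1 encodes fibronectin, the most general of the RGD ligands. It had 776 CPM in HFD and 766 CPM in NC Asc1 fibroblasts, 473 CPM in HFD and 484 CPM in NC Gas6 fibroblasts, and 253 CPM in HFD and 316 CPM in NC Pi16 fibroblasts. Myofibroblasts had 22.0 CPM in HFD and 39.2 CPM in NC. The pooled ratio was 1.01 (0.977 to 1.04) and the ratio in Pi16 fibroblasts 0.800 (0.710 to 0.901). In the labelled pericytes Fn1 was lower by size, with 260 CPM in HFD and 410 CPM in NC, a ratio of 0.635 (0.563 to 0.716). There, 2 of the 7 measured genes were lower by size, Fn1 and Tnc, and 0 were higher, against 6.77% lower and 11.4% higher among all genes measured in the class. A few cells carried much of the Fn1 level: the 10 cells with most counts held 27.8% of the Fn1 counts of the class in HFD and 45.3% in NC. Without those cells the ratio was 0.825, and without cells with at least 3 pericyte markers it was 0.857, each of which ends the call.

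Tnc encodes tenascin-C, a matrix glycoprotein that is scarce in resting adult tissue. It was rare, with a count in 292 HFD cells and 467 NC cells, and its level was at most 19.4 CPM in HFD and 30.2 CPM in NC in any class. Asc1 fibroblasts had 19.4 CPM in HFD and 29.2 CPM in NC, a ratio of 0.665 (0.519 to 0.849). Gas6 fibroblasts had 11.2 CPM in HFD and 17.9 CPM in NC, a ratio of 0.628 (0.436 to 0.891). In both classes Tnc was lower by size, though the Asc1 value lay at the threshold and read 0.671 with TMM scaling, and the Gas6 value read 0.678 under a stricter cell filter. The pooled ratio was 0.680 (0.561 to 0.822), short of the size. At 3000 counts, 2.84% of HFD and 4.80% of NC Asc1 fibroblasts had a Tnc count. Pi16 fibroblasts had 1.77 CPM in HFD and 0.951 CPM in NC, too few counts for a ratio.

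In the labelled pericytes Tnc had 18.2 CPM in HFD and 30.2 CPM in NC, a ratio of 0.602 (0.380 to 0.964). A single NC cell held 52 of the 133 Tnc counts of that class. Without the 10 cells with most counts in each library the ratio was 1.16, on 40.6 effective counts. Over all kept cells, those with a Tnc count had 7702 CPM of the 6 smooth muscle markers in HFD and 2850 CPM in NC. Cells without one had 3402 CPM in HFD and 1275 CPM in NC. Those with a count include 66 HFD and 33 NC labelled pericytes, which are not among the pooled fibroblasts and do not enter the pooled ratio. The markers were not summed for pooled fibroblasts with Tnc alone.

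Spp1 encodes osteopontin, a secreted phosphoprotein that in lung is best known from macrophages. It was detected in few cells, with a count in 39 of 6089 HFD cells and 56 of 8140 NC cells. Myofibroblasts had 170 CPM in HFD and 82.3 CPM in NC, a ratio of 2.07 (1.53 to 2.82). Gas6 fibroblasts had 25.1 CPM in HFD and 4.89 CPM in NC, a ratio of 5.12 (3.43 to 7.83). Asc1 fibroblasts ran the other way, with 1.93 CPM in HFD and 6.43 CPM in NC, a ratio of 0.301 (0.137 to 0.602). The HFD Gas6 value rests on 486 counts in 10 cells, 1 of which held 203. These intervals use a variance factor set by rare genes of the whole library. For Spp1, with its counts in so few cells, they are too narrow and its effective counts too high. The 1 gene higher by size in Gas6 fibroblasts and the 1 in myofibroblasts were both Spp1. Among all genes measured, 6.08% were higher and 5.91% lower in Gas6 fibroblasts, 7.62% higher and 7.94% lower in myofibroblasts, and 4.88% higher and 5.46% lower in Asc1 fibroblasts. Spp1 and Tnc were the 2 genes lower by size in Asc1 fibroblasts. Pi16 fibroblasts, where 5.7% of genes were higher and 5.88% lower, had 0 of 6 measured genes past the size.

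A few cells held most of these counts. In myofibroblasts 12 HFD and 15 NC cells had an Spp1 count. The 10 cells with most counts held 603 of 605 Spp1 counts in HFD and 253 of 277 in NC. Without them the ratio was 0.0793, on 6.44 effective counts, too few for a measured ratio. In HFD, 1 Gas6 fibroblast of 36934 counts held 203 Spp1 counts, 14.8% of all Spp1 counts kept, and carried 5 of the 7 pericyte markers. In NC, 1 Gas6 fibroblast of 21236 counts held 90 Spp1 counts, 14.9% of all, and carried 4 of them. In the labelled pericytes of HFD, 1 cell of 63113 counts held 100 of 190 Spp1 counts and carried 1 pericyte marker. Without the deepest 5% of cells the Gas6 ratio was 2.09, on 22.3 effective counts. Without the 10 cells with most Spp1 counts in each library the pooled ratio was 1.40. No doublet caller was run on the cells here.

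Pericyte genes had higher summed levels in the cells with Spp1. Of these cells, 20 of 39 in HFD and 26 of 56 in NC carried at least 3 of 7 pericyte markers. Higd1b, a defining marker of lung pericytes, had 427 CPM in HFD and 195 CPM in NC cells with an Spp1 count, against 2.54 CPM in HFD and 1.20 CPM in NC cells without one. Cox4i2, another pericyte marker, had 532 CPM in HFD and 596 CPM in NC cells with an Spp1 count, against 11.1 CPM in HFD and 5.30 CPM in NC cells without one. The 9 macrophage and monocyte markers in the tables summed to 7.61 CPM in HFD and 21.01 CPM in NC cells with Spp1, below the 35.5 CPM in HFD and 52.5 CPM in NC cells without it.

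The markers were also counted per cell. In the pooled fibroblast classes, 33 HFD cells (0.601%) and 36 NC cells (0.456%) carried at least 3 of the 7 pericyte markers Cspg4, Notch3, Higd1b, Cox4i2, Lamc3, Trpc6 and Pdgfrb. By class they were 19 myofibroblasts, 6 Gas6, 4 Asc1 and 4 Pi16 fibroblasts in HFD, and 19 myofibroblasts, 7 Gas6, 9 Asc1 and 1 Pi16 fibroblast in NC. These cells held 95.4% of the pooled Spp1 counts in HFD and 84.9% in NC. Spp1 in them was 2931 CPM in HFD and 1786 CPM in NC, against 0.941 CPM in HFD and 1.36 CPM in NC in the other pooled fibroblasts. Without them the pooled Spp1 ratio was 0.690, against 2.27 (1.84 to 2.80) with them, and that of Gas6 fibroblasts was 0.408. The choice of these cells was made after the Spp1 values were seen, although Spp1 is not among the markers.

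**Figure D4:**
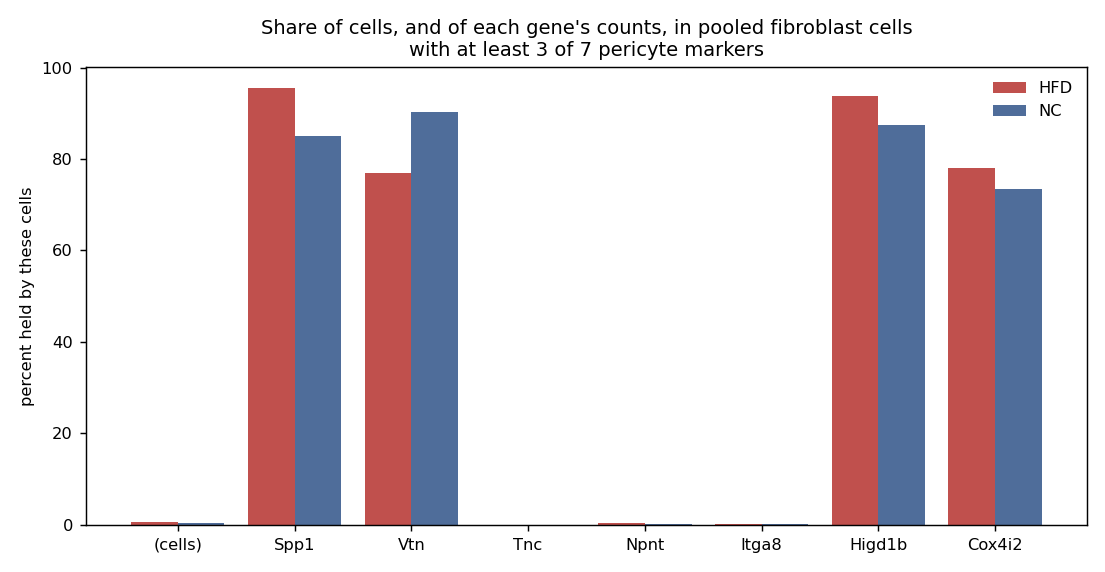
Percent (vertical axis, from 0) of cells and of the counts of 7 genes that lie in pooled fibroblast cells with at least 3 of 7 pericyte markers, HFD left of NC. The cells are 0.601% of HFD and 0.456% of NC pooled fibroblasts and hold 95.4% of HFD and 84.9% of NC Spp1 counts. Higd1b and Cox4i2 are among the markers that chose the cells.

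Vtn encodes vitronectin, an RGD ligand of plasma and matrix. It had 111 counts in 20 HFD cells and 56 counts in 21 NC cells, too few for a diet ratio in any class. Its highest level was in myofibroblasts, with 19.7 CPM in HFD and 8.32 CPM in NC. The same pooled cells with at least 3 pericyte markers held 76.9% of the pooled Vtn counts in HFD and 90.4% in NC. Higd1b reached 752 CPM in HFD and 613 CPM in NC cells with a Vtn count.

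The other genes were spread differently in those cells. Because 19 of the 33 HFD cells and 19 of the 36 NC cells were myofibroblasts, the class with the lowest Npnt, the values are given for pooled fibroblasts and for myofibroblasts. Pooled, Npnt was 846 CPM in HFD and 541 CPM in NC cells with at least 3 markers, against 1292 CPM in HFD and 1064 CPM in NC in the others. Within myofibroblasts the direction was the opposite, with Npnt at 353 CPM in HFD and 315 CPM in NC in the marker cells, against 46.3 CPM in HFD and 44.0 CPM in NC in the others. These myofibroblast values rest on 48 HFD and 28 NC counts. Itgb1 was 774 CPM in HFD and 740 CPM in NC in the pooled marker cells, against 397 CPM in HFD and 354 CPM in NC in the others, and within myofibroblasts 1243 CPM in HFD and 788 CPM in NC, against 285 CPM in HFD and 329 CPM in NC. Pooled Itga8 was 164 CPM in HFD and 238 CPM in NC in the marker cells, against 547 CPM in HFD and 480 CPM in NC in the others, and pooled Fn1 was 189 CPM in HFD and 189 CPM in NC, against 554 CPM in HFD and 548 CPM in NC. Itga8 and Fn1 had at most 6 counts in the marker cells among myofibroblasts of either library, too few to compare there. Tnc had 0 counts in the pooled marker cells of both libraries, which allows up to 37.8 CPM in HFD and 42.5 CPM in NC, above the 13.9 CPM in HFD and 20.4 CPM in NC of the other cells, so no difference was detectable at this depth.

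Within the labelled pericytes, 116 HFD cells (19.5%) and 28 NC cells (11.2%) also carried at least 3 markers, at the greater depth of that class. Spp1 in these was 11.6 CPM in HFD and 16.5 CPM in NC, on 42 HFD and 11 NC counts. The NC value lay under the 17.9 CPM that 3 effective counts give in these NC cells. Their Acta2, a smooth muscle actin, was 12304 CPM in HFD and 13248 CPM in NC, whereas in the pooled fibroblast cells with 3 markers it was 179 CPM in HFD and 758 CPM in NC. The pericyte markers themselves also differed. Higd1b in these labelled pericytes was 9.35 CPM in HFD and 8.98 CPM in NC. It had 34 HFD and 6 NC counts there, and its NC value also lay under 17.9 CPM. In the pooled fibroblast cells with 3 markers it was 997 CPM in HFD and 548 CPM in NC. Cox4i2 was 71.8 CPM in HFD and 100 CPM in NC, against 1407 CPM in HFD and 1363 CPM in NC. High Spp1 thus stood beside high Higd1b and Cox4i2 in cells outside that class, and the marker-bearing cells inside it had lower levels of all 3 genes.

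Patterns over classes were compared by Pearson's r of log2(CPM + 1) over the 10 class-by-library sums, among 6747 genes. The 10 points share 2 libraries and 5 classes of unequal depth, so r is a description without a p. Npnt and Itga8 gave 0.90, Fn1 and Itga8 0.92, Npnt and Fn1 0.88, Itgb5 and Itga8 0.85, and Itga8 and Itgb1 0.60. Spp1 and Vtn gave 0.89 and were negatively related to Fn1, at -0.85 and -0.95. The values of Vtn rest on few counts, 22.9 effective counts in HFD and 14.1 in NC over all kept cells. In Gas6 and Pi16 fibroblasts Vtn had under 3 effective counts in both libraries. The 3 genes most like Npnt were Rab3ip (0.99), Phyhd1 (0.99) and Scn3a (0.98), and those most like Itga8 were Dbi (0.99), Gm49708 (0.99) and Pygm (0.99). Those most like Fn1 were Fam198b, Plxna2 and Fhl1, those most like Itgb1 were Dmpk, Mlf2 and Cox6a1, and those most like Itgb5 were Cped1, Heyl and Pgm5. Tnc had Zbtb38, Glrx and Fermt2, and Itgav had Sdcbp, Ltbp2 and Klf7. Spp1 had Supt16, Hlf and Srp68, none above 0.93.

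Around the 9 genes, 7 lists of other integrin genes were followed in the pooled fibroblasts. The median log2 ratio over all measured genes was 0.02, and 5.45% of them were higher by size and 4.75% lower. Among the alpha subunits, Itga8 and Itgav included, 8 of 18 were measured, 1 was higher by size and 1 lower, and the median was -0.02. Itga5, the fibronectin receptor subunit, was the lower one, with 10.8 CPM in HFD and 18.6 CPM in NC, a ratio of 0.580 (0.468 to 0.715). Itga3, a laminin receptor subunit, was the higher one, with 2.72 CPM in HFD and 1.53 CPM in NC, a ratio of 1.78 (1.02 to 3.13). Among the beta subunits 3 of 8 were measured and 0 passed the size. Itgb8, which with alpha v releases latent TGF-beta, had a ratio of 0.801 (0.640 to 1.0).

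Of 31 other matrix ligands 19 were measured, with a median log2 ratio of -0.12. By size 0 were higher and 1 was lower, against 5.45% higher and 4.75% lower among all measured genes. Thrombospondin-1 (Thbs1) was the lower one, with 2461 CPM in HFD and 3713 CPM in NC, a ratio of 0.663 (0.654 to 0.672). Ccn1, a matricellular protein, had a ratio of 1.24, the milk fat globule protein Mfge8 1.22, and fibrillin-1 (Fbn1) 0.797. Of 11 laminin chains 9 were measured, with a median of -0.06. Lamb3 was higher by size at a low level, 3.37 CPM in HFD and 1.65 CPM in NC, and Lamc1 had a ratio of 0.836, Lamb1 0.923 and Lamc3 1.21.

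Of 33 genes of focal adhesions and integrin regulation, adaptors and tetraspanins among them, 29 were measured, 0 were higher and 1 was lower by size, and the median was 0.03. Lims2, a partner of integrin-linked kinase, was the lower one, with 13.0 CPM in HFD and 20.4 CPM in NC. Tensin-3 (Tns3) had 139 CPM in HFD and 96.0 CPM in NC, a ratio of 1.45 (1.35 to 1.56), zyxin (Zyx) a ratio of 1.27 and Pdlim7 0.782. Of 9 genes that store or hold latent TGF-beta, a cargo that alpha v integrins release, 8 were measured, with a median of -0.18. By size 0 were higher and 2 lower, against 5.45% higher and 4.75% lower among all measured genes. Lrrc32 had 22.6 CPM in HFD and 36.2 CPM in NC, and Ltbp2 18.0 CPM in HFD and 28.1 CPM in NC. Ltbp1 had a ratio of 0.787 and Tgfb3 1.37. Of the basement membrane partners of nephronectin 2 were measured. Fras1 was higher by size, with 2.79 CPM in HFD and 1.72 CPM in NC and an interval of 0.949 to 2.77, and Frem1 had a ratio of 1.09.

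**Figure D5:**
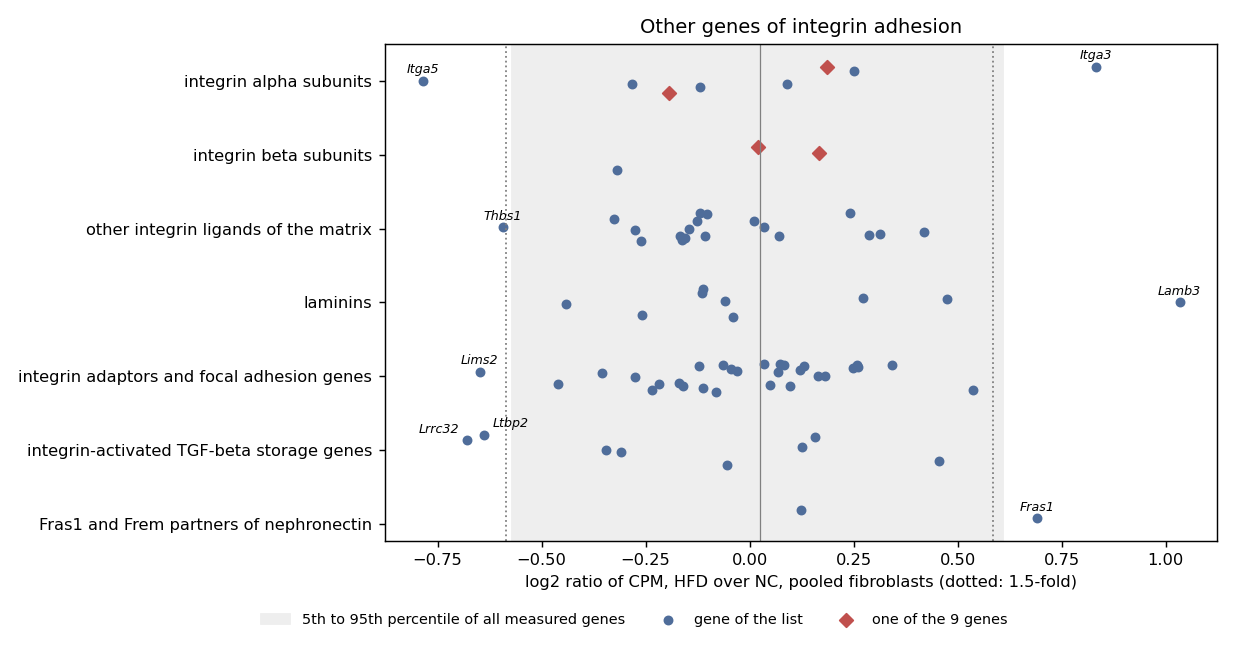
log2 of the HFD over NC ratio of CPM in pooled fibroblasts (horizontal axis) for the measured genes of the 7 lists, with red diamonds for genes of the main set and grey shading from the 5th to the 95th percentile of all measured genes. Most points lie inside the shading, and genes past 1.5-fold are named.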

How the data were processed

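Droplet libraries of HFD and NC lung stroma were made with a 10x Genomics kit that reads 3′ ends, per the labels. The mm39 build and the aligner STAR are named per the submitters' processing notes, and how molecules and strand were counted is not given in the sources used here. Values per cell in the deposited tables are log2 of CPM plus 1, as found from the values, a deposited total that is an estimated count per cell, and deposited percent values of mitochondrial and ribosomal counts. Counts were recovered from them, and 98.8% of HFD and 98.96% of NC nonzero values were whole within 0.01 before rounding. A gene name table gave symbols for 20180 of 21014 identifiers. Rare genes averaged 3.25 counts per positive cell in HFD and 2.66 in NC, so intervals (exact conditional Poisson for ratios, exact Poisson for levels) used effective counts, from variance factors of 4.85 (HFD) and 3.98 (NC). A count of 0 allows up to 3 effective counts. Shares used cells thinned to 3000 counts.

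In GENCODE M21, exons of Fn1, Itga8, Itgav and Tnc overlap genes of the opposite strand and Spp1 overlaps Gm42793 on its own strand, and those reads cannot be told apart here. Named list genes were up to 4 per list with the interval bound farthest from 1, and further ones past the size were chosen after their values were seen. The 9 genes and the lists were chosen with earlier results of these data known. Sums, intervals and thinning were run in Python 3.11.15 with numpy 2.4.6 and scipy 1.17.1. Alternatives changed cell filters, depth, scaling (TMM of edgeR 4.0.16, size factors of DESeq2 1.42.0), class weights, minimums and single cells. On simulated counts drawn with the same variance factors, 95.8% of the intervals held the set ratio. Genes whose counts lie in a few cells, such as Spp1 and Vtn, were not simulated, so that share does not cover them.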

Additional observations from a re-analysis of the deposited data

Results flagged for a closer look

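Spp1 had opposite directions in different classes. Its HFD over NC ratio was 5.12 in Gas6 fibroblasts and 2.07 in myofibroblasts, against 0.301 in Asc1 fibroblasts. Each value rests on 1 library per diet, and the difference between the classes was not tested. In Asc1 fibroblasts the cells with at least 3 pericyte markers held 74.5% of HFD and 79.3% of NC Spp1 counts. Without such cells the ratio was 0.408 in Gas6 and 0.369 in Asc1 fibroblasts, both below 1. These rest on 11.8 and 11.2 effective counts, too few for a measured ratio. NC myofibroblasts kept 0 Spp1 counts, so that no ratio could be given. Only 12 HFD and 15 NC myofibroblasts, and 10 HFD and 14 NC Gas6 fibroblasts, had an Spp1 count. Leaving out the 10 cells with most Spp1 counts in each library therefore left HFD Gas6 fibroblasts 0 counts by construction. The myofibroblast ratio was then 0.0793, on 6.44 effective counts. The Spp1 counts in Asc1 fibroblasts were 51 in HFD and 164 in NC, and 1 cell held 36 of the 51 in HFD and 1 cell held 46 of the 164 in NC.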

How the results depend on the processing

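Of 443 alternative values of 42 ratios of single genes, 409 stayed within the counting interval and 34 left it or crossed 1 from past the size. In all 35 values crossed 1, 5 of them for ratios past the size and 30 for ratios short of it. The cells with at least 3 pericyte markers and the shared barcodes were set apart after the data had been seen. Without those marker cells the Spp1 ratio was 0.690 in pooled fibroblasts and 0.408 in Gas6 fibroblasts, both under the minimum of 50 effective counts. NC myofibroblasts kept 0 Spp1 counts, so no ratio could be given there. Without the 10 cells with most counts of the gene the Spp1 ratio was 0 in Gas6 fibroblasts. That value was fixed in advance, because only 10 HFD cells of the class had a count. In myofibroblasts it was 0.0793, on 6.44 effective counts, and the Tnc ratio in labelled pericytes was 1.16, on 40.6. The pooled count of higher genes (1) was 0 without the marker cells or those 10 cells, and that of lower genes (0) was 1 without the 10 cells or with equal class weights. Several calls of Spp1 were lost because its effective counts fell under 50 while its ratio stayed past the size. In Asc1 fibroblasts, where Spp1 had 51.7 effective counts and its ratio stayed at or under 0.465 in 11 of 11 alternatives, 2 genes were lower, against 0 in cells of 5000 to 20000 counts and 1 under the strict filter (1000 genes, 5% mitochondrial), without the SNAT2 subset of the Asc1 class, the shared barcodes, the marker cells or the 10 cells, or with TMM or DESeq2 size factors. Of these Spp1 ratios, the 0 without the 10 cells was fixed in advance, because only 8 HFD Asc1 fibroblasts had an Spp1 count. Those without the marker cells and without the SNAT2 subset rested on 11.2 and 22.3 effective counts. Tnc was lost by its ratio in the band (0.702), without the shared barcodes (0.667) and with TMM (0.671) or DESeq2 factors (0.674). In Gas6 fibroblasts the 1 higher gene became 0 through that minimum without the deepest 5% of cells (ratio 2.09). The 5000 to 20000 band did the same (2.89). It became 0 through both the ratio and the minimum without the marker cells or the 10 cells. The 1 lower gene became 0 under the strict filter. That filter gave 1 higher gene in Pi16 fibroblasts (Npnt, 1.60) and 2 in labelled pericytes (Itgav, 1.51, and Itgb5, 1.53), in place of 0. The 1 higher gene in myofibroblasts became 0 without the marker cells or the 10 cells, and 1 lower gene appeared with no cell filter. In labelled pericytes 2 genes were lower, against 1 under the strict filter, in the depth band, without the marker cells or by mean CPM per cell, and 0 without the deepest 5% or the 10 cells. Over the lists 3 genes were higher, against 1 under the strict filter, 5 with equal class weights, 0 at a minimum of 200 effective counts and 7 with no minimum. The 5 lower ones became 3 without the deepest 5%, 2 with equal weights and 14 with no minimum. No paired analysis was possible because each diet had 1 library.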

Other observations

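The deposited annotation splits a small SNAT2 subset from the Asc1 class, with 245 HFD cells and 359 NC cells at a median of 4009 counts in HFD and 3037 counts in NC. Itga8 there was 1127 CPM in HFD and 913 CPM in NC, against 737 CPM in HFD and 714 CPM in NC in the rest of the Asc1 class. Npnt was 1975 CPM in HFD and 1465 CPM in NC in the subset, against 1794 CPM in HFD and 1631 CPM in NC in the rest. After thinning, 64.5% of HFD and 63.4% of NC cells of the subset had an Itga8 count. In the rest these shares were 64.4% in HFD and 64.0% in NC. An Npnt count was found in 76.5% of HFD and 69.4% of NC thinned cells of the subset. In the rest it was found in 88.0% in HFD and 86.5% in NC. Thinning left out 45 HFD and 173 NC cells of the subset that were too shallow. The HFD over NC ratio in the subset was 1.35 (1.18 to 1.54) for Npnt, 1.23 (1.04 to 1.47) for Itga8 and 1.34 (1.04 to 1.71) for Itgb1. The median mitochondrial share of the subset was 6.27% in HFD and 6.44% in NC, against 3.48% in HFD and 3.40% in NC in the rest, and its part in these values was not tested.

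The fibronectin receptor subunit Itga5 and the ligand Thbs1 were lower by size in the labelled pericytes. Itga5 there was 114 CPM in HFD and 287 CPM in NC, a ratio of 0.398 (0.339 to 0.467). Thbs1 there was 1093 CPM in HFD and 2315 CPM in NC, a ratio of 0.472 (0.448 to 0.498). Leaving out the cells with most counts, which ended the Fn1 and Tnc calls of this class, was not tried for Itga5 and Thbs1. In that class, where 11.4% of all measured genes were higher by size and 6.77% lower, 2 of 9 measured alpha subunits were higher (Itga3 and Itga4) and 1 was lower (Itga5). Of 18 measured other ligands 0 were higher and 3 were lower (Thbs1, Ccn2 and Vcam1).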
